A study of Mus musculus with 8 samples.

Results

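The genes described here are 10 genes of the primitive streak, the mesendoderm and the anterior endoderm of the early mouse embryo. They include the transcription factor genes T, Mixl1, Eomes and Lhx1 and the ligand genes Wnt3, Wnt8a and Fgf8. The others, Cer1, Hhex and Trh, were listed as anterior endoderm genes. All were chosen by name and make up 10 of the 55401 genes in the count table. Of the 10, 9 had enough counts to be tested and Cer1 did not. The genes did not behave as a unit. Eomes, Lhx1 and Wnt8a rose with differentiation in both genotypes. Trh was lower in knockout than in control embryonic stem cells and higher in knockout than in control embryoid bodies. In day 3 bodies the streak gene T itself stayed below 1 CPM (counts scaled to a library of 1000000), and Cer1 had 12 counts in the 4 libraries together.

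The primitive streak is the site where epiblast cells of the gastrulating embryo leave the epithelium to form mesoderm and endoderm. WNT3, NODAL and FGF signals start it and T, EOMES and MIXL1 act in its cells. The anterior visceral endoderm lies on the opposite side and secretes antagonists of these signals, CER1 among them, which keep the streak posterior. In culture, embryoid bodies made from mouse embryonic stem cells form streak-like cells over several days.

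RNA was sequenced from R1 cells, a mouse embryonic stem cell line, in 4 groups of 2 poly(A)-selected libraries, 8 in all. They were undifferentiated stem cells (ESCs) with the genotype labelled WT and used as controls, ESCs with a Zfp462 knockout, and embryoid bodies (EBs) of each genotype after 3 days. The ESCs grew on gelatin in serum medium with leukaemia inhibitory factor (LIF), and the EBs were grown in suspension from dissociated cells of the same kind. Zfp462 encodes a zinc finger protein, and the study asked what its loss does to self-renewal and differentiation. The knockout cells came from stable lines, and the number of clones is not stated. Nor do the labels give the cultures behind each library, so that p-values rest on a spread of these samples that may be technical.

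The libraries held 12119763 to 16228426 counts, so that 1 count was worth 0.0614 to 0.0814 CPM and a count of 0 allows a level of up to 0.184 to 0.244 CPM (3 counts). These limits cover counting error only. Values are means ± SD of 2 libraries throughout. Zfp462 RNA averaged 190.1 ± 9.72 CPM in the control and 105.3 ± 1.88 CPM in the knockout in ESCs, and 141.9 ± 16.4 against 102.2 ± 0.374 CPM in EBs (edgeR adjusted p = 0.000366 and 0.0207). It was lower but present in the knockout, and counts summed over exons do not show whether a protein is made. Pou5f1 and Sox2, which mark pluripotent cells, were present in every ESC library and lower in knockout ESCs. Pou5f1 stood at 482 ± 11.7 CPM in control against 312.3 ± 47.3 CPM in knockout ESCs (adjusted p = 0.00214). Sox2 stood at 592.4 ± 34.5 against 281.1 ± 63 CPM (adjusted p = 0.000466). Of the other pluripotency genes examined, Esrrb also fell in knockout ESCs, while Fgf5 and Dnmt3b rose (adjusted p = 0.0426 and 0.00672). Nanog and Klf4 did not pass there (adjusted p = 0.286 and 0.238). Over 12034 genes, GC content tracked the log2 difference of the 2 knockout ESC libraries (r = 0.678, a description across genes), against -0.0436 to -0.00229 in the other 3 groups. Knockout EB replicate 1 held adult liver transcripts, with a summed level of 2382 CPM over 20 liver genes against 61.6 to 107.8 CPM in the other 7 libraries. Most of the sum in those 7 was Ass1, at 55.7 to 85.8 CPM. Control EB replicate 2 had the highest sum of the 7, with 179 counts of Alb against 24 in replicate 1, while Mup3 and Cps1 were lower in it. Below, the library that held liver transcripts is knockout EB replicate 1.

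**Figure D1:**
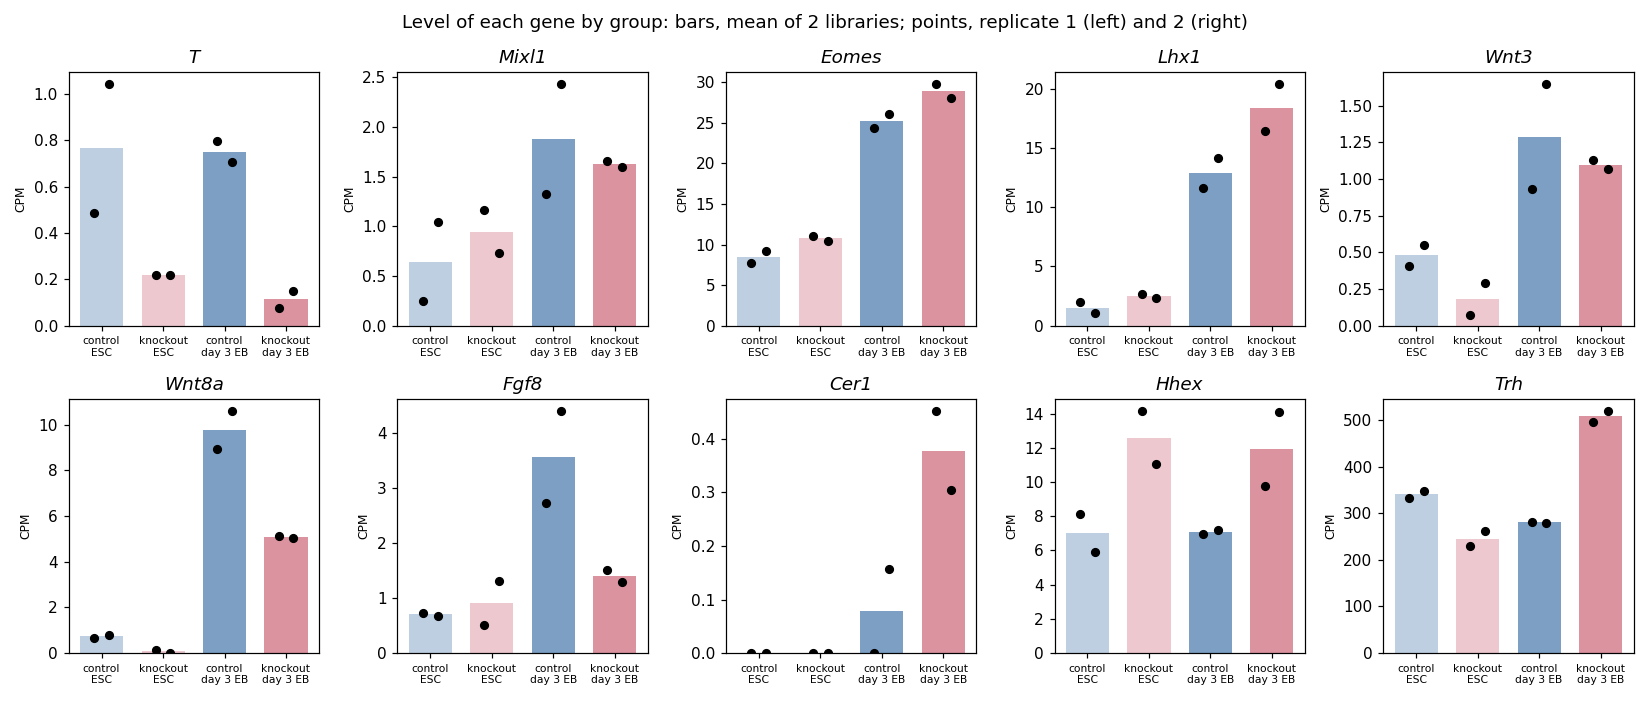
Level of each of the 10 genes in CPM (vertical axis, separate scale in each panel) in the 4 groups. Bars are means of 2 libraries and points are the libraries. Trh reached 518.6 CPM while T and Cer1 stayed near or below 1 CPM in every library.

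Levels can be compared between genes only per length of exon. On the scale of CPM per kilobase of exon, Trh stood far above the other genes, at 246 ± 7.24 in the control and 177 ± 16.3 in the knockout in ESCs, and at 202 ± 0.266 and 367 ± 11.3 in EBs. Trh lay above 98.7% to 99.4% of the 17125 genes tested in every group. Eomes was next, at 6.07 ± 0.303 CPM per kilobase in control EBs, followed by Wnt8a at 5.60 ± 0.663 and Lhx1 at 3.16 ± 0.436. T stood at 0.324 ± 0.0274 CPM per kilobase in control EBs, above 11.9% of the genes tested. In knockout EBs it stood at 0.0491 ± 0.0235, above 0.479% of them. Trh made up 81.8% to 94.4% of the summed CPM of the 10 genes, so a sum over the genes reads mostly Trh. Trh was abundant in undifferentiated control ESCs. Which cells held its RNA was not tested, so its level is not read here as a measure of endoderm.

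T encodes Brachyury, the T-box transcription factor that defines the streak and the nascent mesoderm. The gene (ENSMUSG00000062327.10) lies on chromosome 17 from 8434423 to 8442496 (mm10, plus strand). T had 6 and 17 counts in the control ESC libraries, 3 and 3 in knockout ESCs, 12 and 9 in control EBs and 1 and 2 in knockout EBs. All 4 knockout libraries lay below all 4 control libraries. In CPM, T averaged 0.766 ± 0.393 in control and 0.219 ± 0.000269 in knockout ESCs. It averaged 0.751 ± 0.0635 in control EBs and 0.114 ± 0.0544 in knockout EBs, a ratio of pooled counts of 0.15 (95% exact interval 0.0287 to 0.504, counting error only). Neither knockout difference passed edgeR's quasi-likelihood test, with log2 differences of -1.80 ± 0.75 (estimate ± SE) in ESCs (adjusted p = 0.147) and -2.63 ± 0.85 in EBs (adjusted p = 0.0982). Day 3 brought no detectable increase of T at this depth: the log2 difference between control EBs and control ESCs was -0.06 ± 0.63 (adjusted p = 0.964).

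The start-site windows of T, Eomes and Trh are shown because these genes took 3 different courses: T was low throughout, Eomes rose on differentiation in both genotypes, and Trh moved in opposite directions in the knockout at the 2 stages. Each holds 250 bases before and 50 after the start of the gene (RefSeq, GRCm38.p6, 5′ to 3′ on the gene's strand). Of the 10 genes, 7 had a window that could be used. Capitals mark matches to AGGTGT, a half-site of T-box factors, to CTTTGAA or CTTTGAT and the variants CTTTGTA or CTTTGTT, bound by TCF and LEF factors of the WNT pathway, to AGATAA, bound by GATA factors, to AATNCACA, bound by FOXH1, and to the TATA motif TATAAN, the last on the gene's strand and the others on both.
T (chr17:8434173-8434472, plus strand): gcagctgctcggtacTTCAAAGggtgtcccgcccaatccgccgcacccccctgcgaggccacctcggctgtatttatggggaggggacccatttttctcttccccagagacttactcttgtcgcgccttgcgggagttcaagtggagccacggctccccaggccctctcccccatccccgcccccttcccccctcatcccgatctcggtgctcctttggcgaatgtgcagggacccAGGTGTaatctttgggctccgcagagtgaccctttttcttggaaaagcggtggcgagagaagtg
Eomes (chr9:118477939-118478238, plus strand): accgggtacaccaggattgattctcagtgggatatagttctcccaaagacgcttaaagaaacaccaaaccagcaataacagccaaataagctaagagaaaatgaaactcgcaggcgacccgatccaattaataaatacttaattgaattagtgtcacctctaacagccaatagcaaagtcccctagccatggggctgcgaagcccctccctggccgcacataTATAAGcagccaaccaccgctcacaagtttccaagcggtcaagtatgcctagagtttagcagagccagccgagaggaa
Trh (chr6:92244601-92244900, minus strand): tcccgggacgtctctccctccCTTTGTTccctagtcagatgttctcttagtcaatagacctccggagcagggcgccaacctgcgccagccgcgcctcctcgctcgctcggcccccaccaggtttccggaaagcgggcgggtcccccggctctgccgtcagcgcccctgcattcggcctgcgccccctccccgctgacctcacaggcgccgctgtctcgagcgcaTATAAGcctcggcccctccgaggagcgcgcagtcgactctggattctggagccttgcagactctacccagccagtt
The T window held 1 T-box half-site and 1 TCF/LEF match, the Eomes window a TATA match and the Trh window a TATA and a TCF/LEF match. Among 32851 windows of the same length, 13.7% held the T-box half-site, 16.9% a TCF/LEF match, 11.2% the GATA motif, 3.6% the FOXH1 motif and 17.5% the TATA motif. The windows of Lhx1, Cer1 and Hhex held none of these letters, and that of Wnt3 held CTTTGTT. A match describes the letters and does not show binding.

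Mixl1 encodes a paired-type homeodomain factor of the streak and the early endoderm (ENSMUSG00000026497.7, chromosome 1 from 180693043 to 180697034, minus strand). It had 3 and 17 counts in control ESCs, 16 and 10 in knockout ESCs, 20 and 31 in control EBs and 22 and 21 in knockout EBs. The genotypes overlapped at both stages, and both EB groups lay above the ESC group of their own genotype. The rise in CPM from 0.644 ± 0.566 in control ESCs to 1.88 ± 0.781 in control EBs did not pass the test (log2 difference 1.46 ± 0.62, adjusted p = 0.134). Nor did the difference from 0.947 ± 0.31 CPM in knockout ESCs to 1.63 ± 0.0416 CPM in knockout EBs (0.78 ± 0.61, adjusted p = 0.422).

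Eomes encodes eomesodermin, a T-box factor required in mouse for definitive endoderm and for the anterior streak, and used also in trophoblast. The gene (ENSMUSG00000032446.14) lies on chromosome 9 from 118478212 to 118486132 (plus strand). The level of Eomes in CPM was 7.74 and 9.21 in the control ESC libraries, 11.01 and 10.48 in those of knockout ESCs, 24.3 and 26.1 in those of control EBs, and 29.8 and 28.0 in those of knockout EBs. The 4 EB libraries lay far above the 4 ESC libraries, and knockout lay slightly above control at each stage without overlap. On the log2 scale Eomes rose by 1.57 ± 0.16 in control cells (adjusted p = 0.000103) and by 1.43 ± 0.15 in knockout cells (adjusted p = 0.000245). The knockout differences of 0.34 ± 0.16 in ESCs (adjusted p = 0.207) and 0.20 ± 0.15 in EBs (adjusted p = 0.495) did not pass. An antisense gene, Gm33460, overlaps Eomes and had 5 to 14 counts per library against 95 to 395 for Eomes, and without a stated strand setting the reads of the pair cannot be told apart.

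Lhx1 encodes a LIM homeodomain factor of the anterior mesendoderm and the visceral endoderm, needed for head formation in the mouse (ENSMUSG00000018698.15, chromosome 11 from 84518284 to 84525535, minus strand). Its level in CPM was 2.04 and 1.04 in the control ESC libraries, 2.70 and 2.33 in those of knockout ESCs, 11.6 and 14.1 in those of control EBs, and 16.4 and 20.4 in those of knockout EBs. The order was the same as for Eomes, with the EB groups on top and knockout above control at both stages. Lhx1 rose 8.35-fold in control cells (log2 change 3.09 ± 0.31, adjusted p = 9.67e-05) and 7.32-fold in knockout cells (2.87 ± 0.29, adjusted p = 0.000159). Its knockout differences were 0.74 ± 0.34 in ESCs (adjusted p = 0.185) and 0.52 ± 0.25 in EBs (adjusted p = 0.266) and did not pass.

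Wnt3 encodes the WNT ligand that starts the streak in the mouse (ENSMUSG00000000125.5, chromosome 11 from 103774150 to 103817957, plus strand). It had 5 and 9 counts in control ESCs, 1 and 4 in knockout ESCs, 14 and 21 in control EBs and 15 and 14 in knockout EBs. The EB groups overlapped, and the knockout ESC libraries were the lowest of all. Wnt3 rose from 0.182 ± 0.154 to 1.10 ± 0.0455 CPM in knockout cells (log2 change 2.53 ± 0.74, adjusted p = 0.0439), but this rested on 5 counts in knockout ESCs. The call was lost without 1 of 7 of the 8 libraries (adjusted p from 0.0684 to 0.212) and with only the knockout libraries fitted (0.0881). By DESeq2, and with a mean of at least 1 CPM as the filter, Wnt3 got no adjusted p in knockout cells, so no call was made there. The difference from 0.48 ± 0.103 to 1.29 ± 0.508 CPM in control cells did not pass (1.38 ± 0.62, adjusted p = 0.157).

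Wnt8a encodes a second WNT ligand of the early streak (ENSMUSG00000012282.2, chromosome 18 from 34542313 to 34548273, plus strand). It had 8 and 13 counts in control ESCs, 2 and 0 in knockout ESCs, 135 and 135 in control EBs and 68 and 66 in knockout EBs. Wnt8a was low in ESCs, was clearly present in EBs of both genotypes, and was lower in the knockout at both stages without overlap. In ESCs its mean was 0.725 ± 0.104 CPM in control and 0.0729 ± 0.103 CPM in knockout cells, a log2 change of -3.18 ± 0.72 (adjusted p = 0.0147). The pooled ratio there was 0.0991 (95% exact interval 0.0113 to 0.405, counting error only), with 2 counts in the knockout. Leaving out either control ESC library ended that call (adjusted p = 0.0601 for replicate 1 and 0.115 for replicate 2), and without knockout ESC replicate 1 the other replicate had no count, so that the fitted value of -6.35 is no bound. In EBs Wnt8a stood at 8.95 and 10.6 CPM in control and 5.12 and 5.02 CPM in knockout, so that the knockout mean was 51.9% of control. This difference, -0.94 ± 0.31 on the log2 scale, did not pass (adjusted p = 0.0981), though it did with only the EB libraries fitted (0.0155), with each library's GC trend removed (0.0363) and without knockout ESC replicate 1 (0.0231) or replicate 2 (0.0225).

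The rise of Wnt8a on differentiation passed in both genotypes. It was 13.5-fold in control cells (log2 change 3.72 ± 0.38, adjusted p = 0.000109). In knockout cells the log2 change was 5.95 ± 0.56 (adjusted p = 0.000102), and the pooled ratio was 69.6 (95% exact interval 18.9 to 581). The wide interval comes from the 2 counts in knockout ESCs. The knockout effects in EBs and ESCs differed by 2.23 ± 0.82 on the log2 scale, which did not pass (adjusted p = 0.283; 0.0284 without knockout ESC replicate 1, where the other replicate had no count).

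Fgf8 encodes a fibroblast growth factor that cells need to leave the streak (ENSMUSG00000025219.13, chromosome 19 from 45736798 to 45742915, minus strand). It had 9 and 11 counts in control ESCs, 7 and 18 in knockout ESCs, 41 and 56 in control EBs and 20 and 17 in knockout EBs. The ESC groups overlapped, while both control EB libraries lay above both knockout EB libraries. In control cells Fgf8 rose from 0.704 ± 0.0404 to 3.56 ± 1.18 CPM (log2 change 2.32 ± 0.50, adjusted p = 0.0103), a call lost without control ESC replicate 1 (0.0969), control ESC replicate 2 (0.126) or control EB replicate 2 (0.0934). In knockout cells it stood at 0.91 ± 0.566 CPM in ESCs and 1.40 ± 0.15 CPM in EBs (0.62 ± 0.52, adjusted p = 0.458). The knockout mean in EBs was 39.4% of control, which did not pass (log2 difference -1.33 ± 0.47, adjusted p = 0.123; 0.0421 with only the EB libraries fitted; 0.0466 and 0.0494 without knockout ESC replicate 1 or 2). The test of whether the genotypes responded differently gave -1.70 ± 0.73 (adjusted p = 0.37).

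Among the genes listed as anterior endoderm genes, Cer1 encodes a secreted antagonist of NODAL, BMP and WNT signals (ENSMUSG00000038192.5, chromosome 4 from 82881751 to 82885148, minus strand). It had no count in any of the 4 ESC libraries, 0 and 2 counts in control EBs and 6 and 4 counts in knockout EBs. Both knockout EB libraries lay above both control EB libraries, at 0.452 and 0.304 CPM against 0 and 0.157 CPM. The pooled ratio of knockout to control EBs was 5.27 (95% exact interval 1.12 to 49.4, counting error only), and the counts were too few for the gene to enter the test.

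Hhex encodes a homeodomain factor of the anterior visceral and definitive endoderm that is also expressed in liver (ENSMUSG00000024986.12, chromosome 19 from 37434810 to 37440731, plus strand). Its level in CPM was 8.14 and 5.90 in the control ESC libraries, 14.2 and 11.1 in those of knockout ESCs, 6.96 and 7.22 in those of control EBs, and 9.79 and 14.1 in those of knockout EBs. All 4 knockout libraries lay above all 4 control libraries, and the stages overlapped within each genotype. In ESCs Hhex rose 1.79-fold in the knockout (log2 change 0.85 ± 0.25, adjusted p = 0.0466), a call close to the threshold. It was lost with only the ESC libraries fitted (0.0837), with the replicate number as a block (0.0611), and without control ESC replicate 1 (0.102), control ESC replicate 2 (0.365), knockout ESC replicate 1 (0.117), control EB replicate 1 (0.0893) or control EB replicate 2 (0.0906). In EBs the log2 difference was 0.75 ± 0.25 (adjusted p = 0.11; 0.0459 with only the EB libraries fitted; 0.05 and 0.0499 without knockout ESC replicate 1 or 2). Without the library that held liver transcripts it was 1.00 ± 0.28 (adjusted p = 0.115), and without the other knockout EB replicate 0.46 ± 0.29 (adjusted p = 0.571). Hhex was lower in the library with liver transcripts than in its replicate (9.79 against 14.1 CPM). The part of liver RNA in the Hhex level was not tested. Hhex did not pass between EBs and ESCs, with log2 differences of 0.02 ± 0.26 in control cells (adjusted p = 0.966; -0.03 with library totals as the scale) and -0.08 ± 0.24 in knockout cells (adjusted p = 0.86).

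Trh encodes the precursor of thyrotropin-releasing hormone, a peptide of the hypothalamus whose gene has also served as a marker of early endoderm in the mouse. The gene (ENSMUSG00000005892.4) lies on the minus strand of chromosome 6 from 92242061 to 92244650. The level of Trh in CPM was 333.5 and 347.7 in the control ESC libraries, 229.5 and 261.3 in those of knockout ESCs, 280.3 and 279.8 in those of control EBs, and 496.5 and 518.6 in those of knockout EBs. No 2 groups overlapped, and knockout EBs were the highest, followed by control ESCs, then control EBs, then knockout ESCs. Knockout ESCs held 72% of the control level, a log2 change of -0.47 ± 0.09 (adjusted p = 0.00453; 0.0788 without control ESC replicate 2). Knockout EBs held 1.81 times the control level, a log2 change of 0.86 ± 0.09 (adjusted p = 0.00035).

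The knockout effects on Trh in EBs and in ESCs differed by 1.33 ± 0.12 on the log2 scale (adjusted p = 0.00245 in edgeR's test of the interaction). Leaving out either control ESC library (adjusted p = 0.0744 for replicate 1 and 0.0821 for replicate 2) or control EB replicate 2 (0.071) ended this call, in fits in which 0 of all genes were called for that difference. In knockout cells Trh rose on differentiation from 245.4 ± 22.5 to 507.6 ± 15.7 CPM (1.05 ± 0.09, adjusted p = 4.89e-05). Control cells went from 340.6 ± 10 to 280.1 ± 0.368 CPM (-0.28 ± 0.09, adjusted p = 0.0445). This fall was close to the threshold and was lost by DESeq2 (0.0632), with median-of-ratios factors (0.0527), with a mean of at least 1 CPM as the filter (0.0569) and without 1 of 6 libraries, the 4 control libraries and the 2 knockout EB libraries (0.0829 to 0.27). Without the library that held liver transcripts the EB knockout effect on Trh was 0.90 ± 0.12 (adjusted p = 0.00202).

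**Figure D2:**
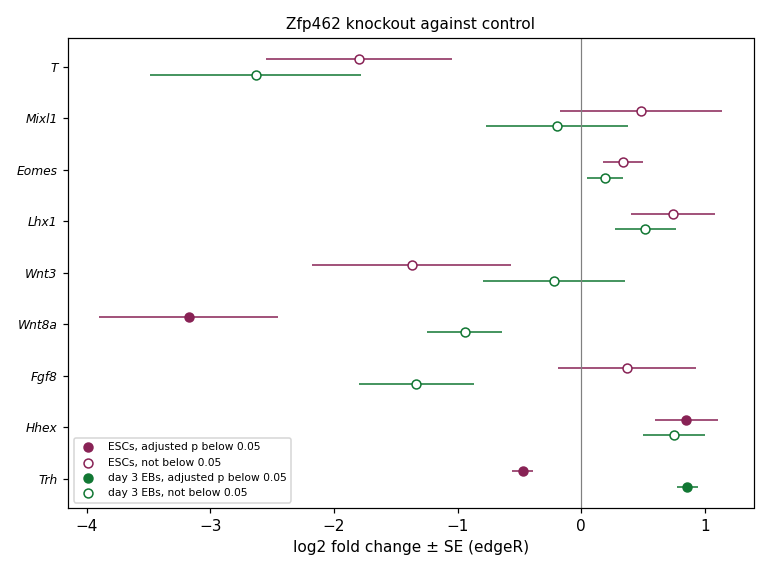
Log2 fold change of knockout against control (horizontal axis, estimate ± SE by edgeR) for the 9 genes tested, in ESCs and in day 3 EBs. Filled points passed an adjusted p below 0.05: Wnt8a and Trh below 0 and Hhex above 0 in ESCs, and Trh above 0 in EBs.

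Set side by side, the knockout comparisons called 3 of the 9 genes in ESCs, where 14.5% of all genes tested were called, and 1 of 9 in EBs, where 6.8% were. In ESCs Hhex was higher (8.3% of all genes were) and Wnt8a and Trh were lower (6.2% were). In EBs Trh was higher (4.75% of all genes were) and none was lower (2.04% were). With only the EB libraries fitted, 4 were called in EBs, Hhex and Trh higher and Wnt8a and Fgf8 lower, beside 2720 of all genes. Fits without knockout ESC replicate 1 or replicate 2 also called 4 there, whereas the fit without the library that held liver transcripts called 1, Trh. Over all genes those fits called 3127, 3125 and 410 in EBs, against 1164 with every library. Without control ESC replicate 1 the log2 differences in ESCs were -3.31 for Wnt8a, 1.09 for Hhex and -0.51 for Trh. Without control ESC replicate 2 they were -3.01, 0.62 and -0.45. In both fits fewer of the 9 genes passed in ESCs, and fewer of all genes did. The median log2 difference over the 9 genes was 0.34 in ESCs and -0.20 in EBs, against -0.03 and 0.00 over all genes tested. The interaction called 1 gene of 9, Trh, as higher, where 0.742% of all genes were, and 0 as lower, where 0.642% were. These are counts of bulk RNA, in which fewer cells of a type and less RNA per cell cannot be told apart.

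**Figure D3:**
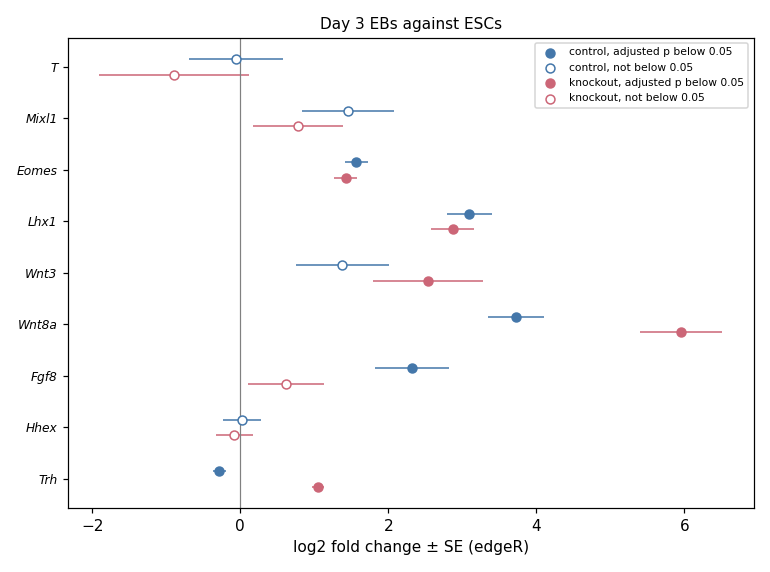
Log2 fold change of day 3 EBs against ESCs (horizontal axis, estimate ± SE by edgeR) for the 9 genes tested, in control and in knockout cells. Lhx1, Eomes and Wnt8a lie to the right with filled points in both genotypes, and Trh lies on opposite sides of 0.

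The differentiation comparisons called 4 of the 9 genes as higher in control EBs (Eomes, Lhx1, Wnt8a and Fgf8), where 8.6% of all genes were, and Trh as lower, where 9.63% were. In knockout cells 5 of 9 were higher (Eomes, Lhx1, Wnt3, Wnt8a and Trh), where 8.23% of all genes were, and none was lower, where 7.11% were. The median log2 change over the 9 genes was 1.46 in control cells and 1.05 in knockout cells, against -0.01 and 0.00 over all genes tested. Eomes, Lhx1 and Wnt8a were called in both genotypes under each alternative run, including without any 1 library. The interaction of Eomes was -0.14 ± 0.22 (adjusted p = 0.86) and that of Lhx1 was -0.22 ± 0.42 (adjusted p = 0.89). This does not show that the genotypes responded alike.

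Further streak and mesendoderm genes, 25 in all, gave a mixed picture. Of the 17 with enough counts, 3 rose and 2 fell in knockout ESCs while 12 missed the threshold, with a median log2 change of -0.28. In knockout EBs 3 were higher, 1 was lower and 13 did not pass, with a median of 0.09. Of all genes tested, 8.3% rose and 6.2% fell in knockout ESCs, and 4.75% and 2.04% did so in knockout EBs. Lef1, a transcription factor that carries the WNT signal, was lower at both stages, by -1.55 ± 0.17 in ESCs (adjusted p = 0.000262) and -0.67 ± 0.13 in EBs (adjusted p = 0.0151). Cyp26a1, which degrades retinoic acid, was higher at both, by 1.30 ± 0.18 (adjusted p = 0.000799) and 0.66 ± 0.16 (adjusted p = 0.035). Fst, an antagonist of activin, rose in knockout ESCs from 14.9 ± 0.472 to 49.8 ± 4.68 CPM (1.74 ± 0.15, adjusted p = 6.7e-05), and Lefty2, a NODAL antagonist, fell by -0.45 ± 0.08 (adjusted p = 0.00314). Snai1, a repressor of E-cadherin, was higher in knockout cells by 2.00 ± 0.35 in ESCs (adjusted p = 0.00378) and 1.53 ± 0.38 in EBs (adjusted p = 0.0389). The ligand gene Bmp4 was higher in knockout EBs by 0.66 ± 0.15 (adjusted p = 0.0239). Nodal, the gene of the ligand that maintains the streak, had CPM levels of 64.6 and 65.8 (control ESCs), 57.6 and 53.1 (knockout ESCs), 69.5 and 77.8 (control EBs), and 68.6 and 69.5 (knockout EBs), and passed in neither knockout comparison (adjusted p = 0.154 and 0.654).

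Of 17 further genes of the anterior and definitive endoderm, 16 were tested. In knockout ESCs 6 rose (8.3% of all genes tested did), 3 fell (6.2%) and 7 missed the threshold. The median log2 change was 0.16. In knockout EBs 4 were higher (4.75%), 0 were lower (2.04%) and 12 did not pass, with a median of 0.46. Dkk1, a secreted WNT antagonist of the anterior visceral endoderm, had CPM levels of 5.05 and 3.75 (control ESCs), 24.1 and 25.0 (knockout ESCs), 5.04 and 7.29 (control EBs), and 17.9 and 20.1 (knockout EBs). The 4 knockout libraries lay above the 4 control libraries, with log2 changes of 2.49 ± 0.23 in ESCs (adjusted p = 7.61e-05) and 1.63 ± 0.22 in EBs (adjusted p = 0.00184). Amot, which encodes angiomotin, a protein of cell junctions, was higher by 1.54 ± 0.09 in ESCs (adjusted p = 6.12e-06) and 0.76 ± 0.09 in EBs (adjusted p = 0.000816). The endoderm factors Sox17 and Foxa2 were higher in knockout EBs by 0.99 ± 0.23 (adjusted p = 0.0303) and 0.99 ± 0.21 (adjusted p = 0.0205). Both rose in knockout ESCs as well. Sox17 rose by 2.15 ± 0.23 (adjusted p = 0.000213), with 61.6 and 35.8 CPM in the knockout ESC libraries. Foxa2 rose by 1.55 ± 0.22 (adjusted p = 0.000962), with 18.5 and 13.0 CPM in them. Lefty1, a NODAL antagonist of the anterior visceral endoderm, went the other way in ESCs, from 89.6 ± 0.304 to 38.6 ± 10.6 CPM (-1.22 ± 0.15, adjusted p = 0.000486), and stood at 187.2 ± 7.49 CPM in control and 186.7 ± 0.297 CPM in knockout EBs. Otx2 and Fzd5 were also lower in knockout ESCs, by -0.38 ± 0.10 (adjusted p = 0.0333) and -0.55 ± 0.10 (adjusted p = 0.00563), and Hesx1 and Nog were higher, by 1.79 ± 0.44 (adjusted p = 0.0211) and 2.37 ± 0.32 (adjusted p = 0.000738). Gsc, in both lists, was not tested. Unlike those of the 10 genes, the calls in both lists were not rechecked with a library left out or the GC trend removed.

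**Figure D4:**
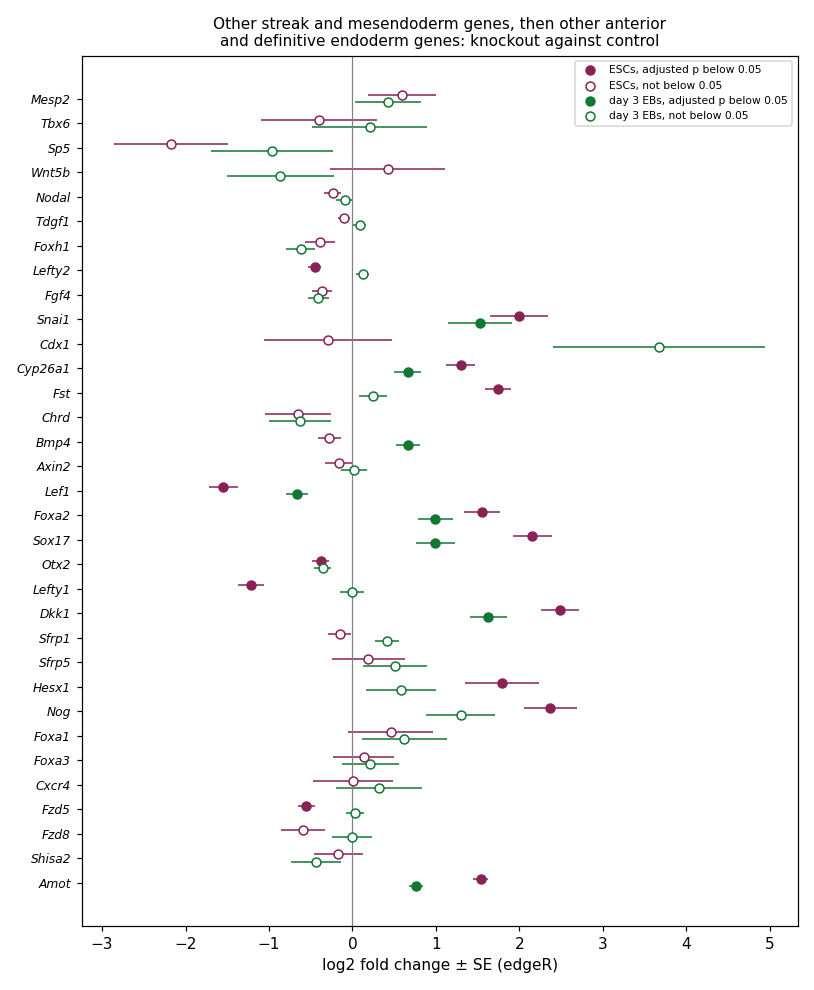
Log2 fold change of knockout against control (horizontal axis, estimate ± SE by edgeR) in ESCs and in day 3 EBs for the tested genes of the further streak and mesendoderm list (top, Mesp2 to Lef1) and the further anterior and definitive endoderm list (bottom). Snai1 and Cyp26a1 of the first list and Dkk1, Foxa2, Sox17 and Amot of the second have filled points to the right at both stages, and Lef1 to the left.

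Markers of the extraembryonic endoderm in general were higher in the knockout at both stages. Of 21 such markers, 17 rose in knockout ESCs (8.3% of all genes tested did) and 0 fell (6.2%), with a median log2 change of 1.89. In knockout EBs 18 were higher (4.75%) and 0 lower (2.04%), with a median of 1.05. Within knockout EBs, Apoa1, Apob and Ttr were higher in the library that held liver transcripts (112.2 against 41.09 CPM for Apoa1). Dab2, Cubn and Sparc were lower in it. The summed level of the 21 markers was 4507 to 4752 CPM in control ESCs, 15040 to 17950 CPM in knockout ESCs, 5740 to 6143 CPM in control EBs and 11100 to 11790 CPM in knockout EBs, and none of the 21 was at 0 in any library. In ESCs the further endoderm genes were split beside them (6 higher, 3 lower), and among the 9 tested genes 1 was higher and 2 were lower. By sign alone, Hhex, Eomes and Lhx1 lay in the direction of these markers at both stages, and of these only Hhex in ESCs passed. Trh did so in EBs but not in ESCs, and Mixl1 and Fgf8 in ESCs but not in EBs. T, Wnt3 and Wnt8a lay the other way at both stages. On differentiation 12 of the 21 markers rose in control cells (8.6% of all genes tested did) and 3 fell (9.63%). In knockout cells 12 rose (8.23%) and 7 fell (7.11%), beside the rises of Eomes, Lhx1 and Wnt8a in both genotypes. The visceral endoderm gene Ttr, for example, went from 3.71 ± 0.752 to 44.9 ± 8.32 CPM in control cells (log2 change 3.58 ± 0.25, adjusted p = 9.87e-06). The part of these cells in the levels of the streak and endoderm genes was not tested. For Eomes, the trophoblast genes Cdx2 and Elf5 had at most 9 and 4 counts in any library. The part of trophoblast cells in the Eomes level was not tested. The 11 trophoblast genes summed to 152.3 to 176 CPM in control ESCs and 248.3 to 251.3 CPM in knockout ESCs. In EBs they summed to 158.8 to 159.8 CPM in control and 190.9 to 214.3 CPM in knockout. Most of each sum came from Krt8, Krt18 and Tfap2c, so a sum over the list reads mostly these genes. Of the 6 tested, Krt8 and Krt18, keratins that extraembryonic endoderm also expresses, rose in knockout ESCs. Krt8 went from 53.0 ± 8.13 to 126.7 ± 1.18 CPM there and Krt18 from 43.95 ± 4.92 to 100.1 ± 1.32 CPM. Tfap2c, a transcription factor gene, fell from 58.6 ± 2.12 to 14.4 ± 2.08 CPM. Of 7 genes of naive or primed pluripotent cells, none was at 0 in any library, and they did not move one way. In knockout ESCs Sox2, Pou5f1 and Esrrb fell while Fgf5 and Dnmt3b rose, and in knockout EBs Nanog and Klf4 were higher while Fgf5 and Dnmt3b were lower. In control differentiation Nanog, Esrrb, Klf4 and Sox2 fell while Fgf5 and Dnmt3b rose, and in knockout differentiation Nanog, Esrrb and Klf4 fell while Fgf5 and Dnmt3b rose.

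Genes with the closest pattern were found for the 5 genes whose group mean reached 5 CPM or more, as the smallest root mean square difference in centred log2 CPM over the 8 libraries, among 11036 protein-coding genes. For Eomes these were Dnmt3a, a de novo DNA methyltransferase gene (difference 0.139), and Fjx1 (0.16). For Wnt8a they were Vrtn (0.35), with means of 5.25 CPM in the control and 1.17 CPM in the knockout in ESCs, and 62.4 and 26.1 CPM in EBs, and Oasl2 (0.462). The nearest to Lhx1 were Gbp4 (0.413) and Prss12 (0.416), and the nearest to Hhex were Rhoc (0.15) and Rassf8 (0.155). Trh was closest to Fbxl17 (0.182) and Etv1 (0.191), at much lower levels, with 14.2 CPM for Fbxl17 and 21.01 CPM for Etv1 in knockout EBs. These distances are descriptions, and the genes compared come from the same 8 libraries.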

How the data were processed

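Per the file headers, the values deposited are raw gene-level counts, 1 column a library. HISAT2, featureCounts, DESeq2 and mm10 are named in the submitters' processing notes, and no version, strand setting or rule for shared reads is given in the sources used here. Symbols came from GENCODE M21, which matched 55141 of 55401 IDs.

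The 17125 genes kept by edgeR's filterByExpr were scaled by TMM. The quasi-likelihood test of edgeR used all 8 libraries and a mean for each group, with a biological coefficient of variation of 0.132. Benjamini-Hochberg adjustment covered every gene tested, and the threshold was 0.05. SEs are the log2 fold change over the square root of the test statistic. CPM uses TMM-adjusted library sizes. Ratios of few counts have Clopper-Pearson intervals conditional on their sum. R 4.3.3, edgeR 4.0.16 and DESeq2 1.42.0 were used. The code was also run on simulated counts with the same spread for every gene, no GC trend and no change in low-count genes. That run does not test the calls made here.

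The genes and lists were chosen with earlier results of these data known. Named were all 10 genes, up to 4 genes per further streak or endoderm list and knockout comparison with the smallest adjusted p below 0.05, Zfp462, and the 2 closest patterns per gene. Nodal, then Snai1, Foxa2, Otx2, Fzd5, Hesx1 and Nog in ESCs, and other genes set beside a result were chosen after their values were seen. Markers of other cells are given as list counts and sums. Replicates were distinct libraries (chi-square per degree of freedom 3.13 to 25.4 over genes with a mean of at least 50 counts). Alternatives were other factors, other filters, a replicate block, subtraction of a GC spline (5 degrees of freedom) from each library, a fit of the compared groups alone, DESeq2, a minimum fold change of 2, and each library left out. Calls of single genes outside the 10 were not rechecked under these alternatives.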

Additional observations from a re-analysis of the deposited data

Results flagged for a closer look

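Trh was flagged because its knockout effect differed between the stages by the interaction test: the effect in EBs minus that in ESCs was 1.33 on the log2 scale (adjusted p = 0.00245), with both knockout ESC libraries below and both knockout EB libraries above their controls.

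The interaction test also flagged 4 of the named streak and endoderm genes. Lefty1 differed by 1.21 (adjusted p = 0.025) and Lefty2 by 0.58 (adjusted p = 0.0324), both lower in knockout ESCs. Fst differed by -1.49 (adjusted p = 0.0133) and Amot by -0.77 (adjusted p = 0.0209), both with a higher log2 difference in ESCs than in EBs, where Fst did not pass (0.25 ± 0.17, adjusted p = 0.439). No cause was tested for any of the 5.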

How the results depend on the processing

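Of 780 recomputed values of the 9 tested genes over 5 comparisons, 714 kept their direction and their side of the threshold, 37 lost a call, 12 gained one and 17 changed sign, none of the last being a called value. The number of genes called in ESCs was 3, against 1 with only the groups compared (Wnt8a fell under the filter there) and 1 with a fold change of at least 2. In EBs it was 1, against 4 with only the groups compared, 2 with the GC trend removed, 2 with the replicate block and the GC trend removed, and 0 with a fold change of at least 2. Leaving out 1 library gave 0 to 3 in ESCs, 1 to 4 in EBs, 3 to 5 for control differentiation, 4 to 5 for knockout differentiation and 0 to 2 for the interaction. Over all genes those fits called 756 to 4729 in ESCs, 236 to 3127 in EBs, 830 to 5512 for control differentiation, 843 to 5485 for knockout differentiation and 0 to 2040 for the interaction, so the shares of all genes called also depend on single libraries. In 3 of these fits no gene at all was called for the interaction. Over all genes, calls went from 2483 to 3990 in ESCs and from 1164 to 2746 in EBs with the GC trend removed, from 1164 to 2094 in EBs with no filter, and from 237 to 723 and 704 for the interaction under these settings, where DESeq2 gave 392. With only the groups compared they were 1358 in ESCs, 2720 in EBs, and 5571 against 3121 for control and 818 against 2627 for knockout differentiation. With a fold change of at least 2 they were 1083 in ESCs and 554 in EBs. With the replicate block and the GC trend removed they were 2612 in EBs.

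The samples share only a replicate number, and the correlation of replicate differences between groups was -0.153 to 0.0355. With the replicate block 2 genes were called in ESCs (Hhex was lost), beside 2281 of all genes, and 1 in EBs, beside 967. No other call of the genes described here changed in the main comparisons.

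Sign changes outside leave-one-out fits were T in control differentiation, 0.012 with the replicate block and 0.00016 with the block and the GC trend removed, and Hhex in control differentiation, -0.034 with library totals. Leave-one-out ranges that crossed 0 were -0.146 to 1.909 (Mixl1) and -0.457 to 0.881 (Fgf8) for the knockout in ESCs, and -0.581 to 0.295 (Mixl1) and -0.586 to 0.241 (Wnt3) for the knockout in EBs. For control differentiation they were -0.473 to 0.61 (T) and -0.203 to 0.262 (Hhex), for knockout differentiation -0.362 to 0.172 (Hhex), and for the interaction -0.737 to 0.22 (Lhx1) and -0.382 to 0.15 (Hhex). The cause was not tested. Depth limits T, Mixl1, Wnt3 and Cer1, which had at most 31 counts in any library, and Wnt8a and Fgf8 in ESCs. A lone library left in a group is assumed to vary like the other groups.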

Other observations

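Several streak genes outside the tested set had few counts and are given as counts, chosen after their values were seen. Gsc, a homeobox gene of the anterior streak, had 3 and 0 counts in control ESCs, 2 and 3 in knockout ESCs, 8 and 16 in control EBs and 8 and 6 in knockout EBs. Msgn1, a factor of the presomitic mesoderm, had 0 and 3 counts in control EBs and 10 and 7 in knockout EBs. Mesp1, a factor of nascent mesoderm, had at most 6 counts in any library.

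Sp5, a direct WNT target, had 21 and 32 counts in control ESCs, 9 and 2 in knockout ESCs, 14 and 9 in control EBs and 3 and 8 in knockout EBs. Its knockout differences were -2.18 ± 0.68 in ESCs (adjusted p = 0.0586) and -0.96 ± 0.73 in EBs (adjusted p = 0.499) and did not pass.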
